A study of Mus musculus with 42 samples.

Results

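The 10 genes described here are the cadherins Cdh1 and Cdh2, the epithelial adhesion gene Epcam, the mesenchymal products Vim and Fn1, and the transcription factor genes Snai1, Snai2, Zeb1, Zeb2 and Twist1. They were chosen by name as genes of adhesion and of the epithelial-mesenchymal transition, and all 10 were found by symbol among the 14296 genes measured. Poly-A RNA was sequenced from W9.5 mouse embryonic stem (ES) cells of the strain 129X1/SvJ, undifferentiated at 0 h and then left to differentiate without directing factors into embryoid bodies, which are floating aggregates formed once the cytokine LIF is withdrawn. Cultures were sampled every 6 h to 120 h, at 21 time points in duplicate cultures named replicates A and B, which gave 42 libraries. All of them came from a single low-passage line, the 0 h cultures are the sole undifferentiated ones analysed here, and a library averages every cell of its culture. In such bulk RNA, fewer cells of a type and less RNA per cell cannot be told apart.

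Epithelial cells hold together through cadherins, membrane proteins that bind the same cadherin on the neighbouring cell and connect through catenins to actin. In an epithelial-mesenchymal transition, as when cells leave the epiblast through the primitive streak, E-cadherin (Cdh1) is lost, N-cadherin (Cdh2) is gained, and cells make more of the intermediate filament vimentin (Vim) and of the matrix protein fibronectin (Fn1). The Snail, Zeb and Twist families of transcription factors are known to drive it, and the Snail and Zeb proteins repress Cdh1 by binding E-boxes of the sequence CACCTG, or CAGGTG on the opposite strand.

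Start-site windows of 5 of the 10 genes, from 250 bases before to 50 bases after the transcript start, were taken from RefSeq on build GRCm38.p6. They are shown for Epcam and Snai1, since these 2 of the 5 genes held the E-box that Snail and Zeb proteins bind, written in capitals. The Epcam window lies on the plus strand at chr17:87635729-87636028 and the Snai1 window on the plus strand at chr2:167537945-167538244, both read 5′ to 3′.
Epcam: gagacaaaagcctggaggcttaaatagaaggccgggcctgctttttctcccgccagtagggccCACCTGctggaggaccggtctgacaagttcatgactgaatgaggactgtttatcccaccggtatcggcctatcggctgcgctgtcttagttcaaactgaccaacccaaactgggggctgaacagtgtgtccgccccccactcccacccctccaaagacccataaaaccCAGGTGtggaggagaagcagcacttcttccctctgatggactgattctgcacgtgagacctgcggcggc
Snai1: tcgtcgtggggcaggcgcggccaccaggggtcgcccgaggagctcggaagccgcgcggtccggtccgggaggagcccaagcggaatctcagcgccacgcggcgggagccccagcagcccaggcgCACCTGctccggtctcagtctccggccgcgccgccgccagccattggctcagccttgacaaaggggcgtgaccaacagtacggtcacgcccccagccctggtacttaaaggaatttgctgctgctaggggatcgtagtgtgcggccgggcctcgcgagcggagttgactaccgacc
The first base of CACCTG lay 187 bases before the Epcam start and that of CAGGTG 19 bases before it, and in Snai1 the single CACCTG began 126 bases before the start. Of the 32851 windows in the set used, 20.2% held at least 1 of these motifs on either strand and 2.88% held at least 2. The set does not cover every gene. It had no window for Cdh1, Cdh2, Fn1, Snai2 and Zeb1, so E-boxes of these genes were not examined. The windows of Vim and Twist1 and all 4 windows of Zeb2 held none. A match describes the letters alone and is not a measured binding site.

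The reads counted on the measured genes ranged from 10120972 to 51652434 per library, so that 3 reads, about the upper limit when none is seen, equalled between 0.0571 and 0.316 CPM (reads of a gene scaled to a library of fixed size). Levels below are log2 CPM, in which a difference of 1 is a doubling. Cdh1, Epcam, Vim and Fn1 were counted in at least 618 reads in every library. Cdh2 had at least 8 reads, Snai1 10, Twist1 17, Zeb1 53 and Snai2 3, and Zeb2 had 3 reads or fewer in 5 libraries. Replicate B at 96 h stood apart from replicate A, with values given at the end. None of the differences below use the 96 h libraries, but these enter the shared estimate of the spread, so counts are also given without them. On the genome, Fn1 overlaps the measured gene Apol7d on the opposite strand, and Cdh2, Zeb1 and Zeb2 overlap noncoding genes there. The library kit keeps the strand, whereas the strand setting of the counting is not given in the sources used here, so reads of such partners cannot be told apart with certainty.

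All 10 genes changed over the course, by an F test over the 21 time points with adjusted p below 0.0001, where 74.6% of all genes passed. The adjusted p ranged from 2.18e-14 for Twist1 to 3.47e-06 for Epcam. With voom precision weights 9 of the 10 passed, and Cdh2 missed the threshold (adjusted p = 0.000683). Between the highest and the lowest mean level of a gene lay a median distance of 3.04 in log2 CPM for the 10 genes and 1.50 for all genes, and 9 of the 10 were above the latter. Epcam, with the smallest distance of the 10 at 1.09, was the exception. The mean level was highest from 108 h on in 6 of the 10 genes, against 18.3% of all genes. Of these, Cdh1 and Zeb2 were highest from 108 h on in both replicates. Cdh2, Vim and Snai1 were highest at 96 h in replicate B, and Fn1 at 0 h in replicate A.

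**Figure D1:**
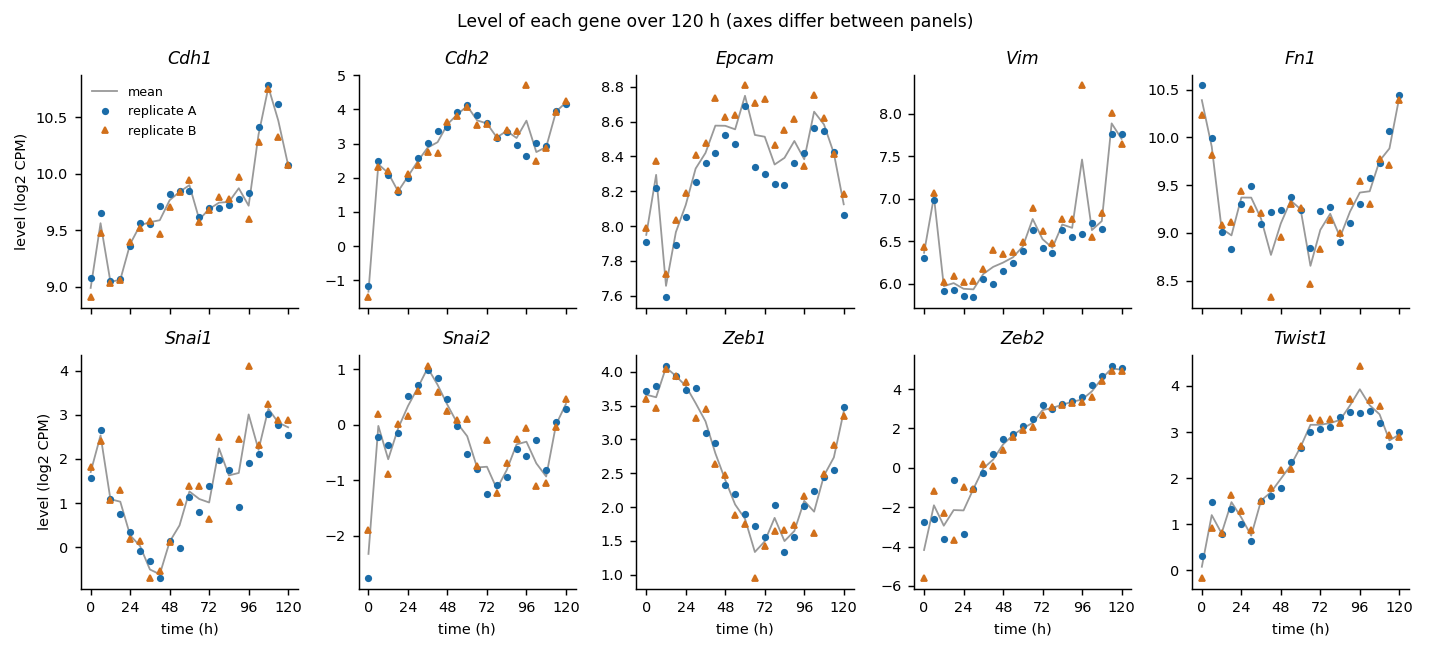
Level of each of the 10 genes in log2 CPM (vertical axes, which differ between panels) by time in hours (horizontal axis), with replicate A as circles, replicate B as triangles and their mean as a line. Cdh1 is highest at 108 h, Cdh2 is lowest at 0 h, Zeb1 runs low near 66 h while Zeb2 climbs, and replicate B at 96 h lies far above A for Cdh2, Vim and Snai1.

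Between single time points the calls were fewer, and 7 differences that split the course were tested by limma at an adjusted p below 0.0001. From 0 to 6 h, 3 of the 10 genes, Cdh1, Cdh2 and Snai2, rose and 0 fell, where 11.8% of all genes rose and 14.5% fell. From 6 to 24 h the counts were 0 and 0 (5.64% and 5.76% of all genes), with 3 of the 10 at an unadjusted p under 0.05, against 45.7% of all genes. From 24 to 48 h, 0 rose and 1, Zeb1, fell (5.27% and 3.7%). From 48 to 72 h, 0 and 0 passed in limma (5.6% and 3.78%), with 4 of the 10 at an unadjusted p under 0.05, against 48.8% of all genes.

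In the second part of the course, from 72 to 108 h, 1 gene, Cdh1, rose and 0 fell (8.42% and 6.86% of all genes). From 108 to 120 h 0 rose and 1, again Cdh1, fell (2.39% and 1.73%). Between the ends, 120 h against 0 h, 5 of the 10, Cdh1, Cdh2, Snai2, Zeb2 and Twist1, rose and 0 fell, where 12.9% of all genes rose and 10.1% fell. The median difference between the ends was 1.22 on the log2 scale over the 10 genes and -0.02 over all genes. In a fit without the 96 h libraries the 7 counts became 5, 2, 2, 1, 2, 3 and 6, in the same order. Calls over all genes grew in that fit too. Those that rose numbered 2017, 1058, 931, 1060, 1487, 548 and 2054, against 1692, 807, 753, 801, 1204, 342 and 1847 with all libraries. Those that fell numbered 2392, 1055, 668, 870, 1228, 382 and 1735, against 2070, 823, 529, 540, 980, 247 and 1439.

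**Figure D2:**
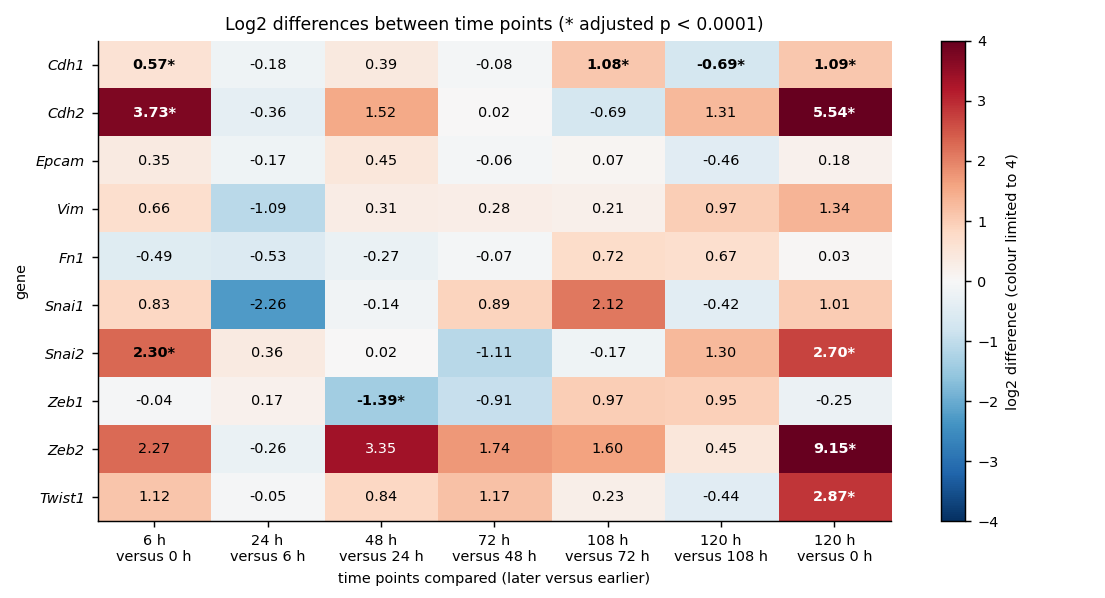
Log2 difference of each gene (rows) in each of 7 pairs of time points (columns, later minus earlier), as number and colour, with an asterisk and bold type where the adjusted p was below 0.0001. The calls are 3 at 6 h versus 0 h, 5 at 120 h versus 0 h and 3 in the other columns together, and the Zeb2 values against 0 h rest on 3 reads at 0 h.

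Cdh1, which encodes E-cadherin, the main cadherin of epithelia and of ES cells, rose between the ends of the course and was highest at 108 h. Its level was 9.07 in replicate A and 8.91 in replicate B at 0 h, and 9.65 and 9.47 at 6 h. It was 9.05 and 9.03 at 12 h, 9.85 and 9.95 at 60 h, and 9.70 and 9.68 at 72 h. The 12 h libraries were thus back within the range of the 0 h ones, and both replicates shared the early excursion. The late maximum was 10.78 and 10.75 at 108 h, after 10.41 and 10.28 at 102 h, and the level was 10.08 and 10.07 at 120 h. Both libraries at 108 h lay above those of every other time point.

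The rise of Cdh1 from 72 to 108 h was 1.08 ± 0.10 (SE, n = 2 libraries per time point, as in all differences below) on the log2 scale, a 2.11-fold change with adjusted p = 2.53e-09. From 0 to 6 h it rose by 0.57 (adjusted p = 3.16e-05) and from 108 to 120 h it fell by 0.69 (adjusted p = 1.59e-05). Against 0 h, it was 1.09 higher at 120 h (adjusted p = 9.88e-10). The differences at 6 to 24 h (-0.18), 24 to 48 h (0.39) and 48 to 72 h (-0.08) did not pass. The call from 0 to 6 h was lost without 0 h replicate A (0.66, adjusted p = 0.000117), without 0 h replicate B (0.49, 0.00226) or without 6 h replicate A (0.48, 0.0024), and with library totals unscaled by normalization factors, which moves all genes by -0.22, it was lost too (0.35, adjusted p = 0.00501), as in a fit of only the time points compared (0.000468). The call from 108 to 120 h was lost without any 1 of its 4 libraries, with adjusted p from 0.000408 to 0.000648, and that from 72 to 108 h was lost when only those 4 libraries were fitted (adjusted p = 0.00258).

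Cdh2, the gene of N-cadherin, had the largest fitted difference of the 10 from 0 to 6 h. It was counted in 10 reads in replicate A and 8 in B at 0 h, and in 154 and 84 reads at 6 h. The levels were -1.17 and -1.50 at 0 h and 2.49 and 2.30 at 6 h. They differed by 3.73 ± 0.34 (adjusted p = 5.29e-10), and the ratio of the summed reads was 14.1, with a 95% interval of 8.74 to 24.2 that covers counting error only. With voom precision weights computed from the recovered reads, the difference was 3.75 and its adjusted p was 0.000913.

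Cdh2 then had levels of 1.57 and 1.63 at 18 h and 4.13 and 4.06 at 60 h. It was at 2.93 and 2.87 at 108 h, and at 4.16 and 4.25 at 120 h. Replicate A was highest at 120 h and replicate B at 96 h, with 4.71, where A was at 2.63. At 120 h it was 5.54 above 0 h (adjusted p = 1.18e-13), a ratio of reads of 48.7 (30.7 to 82.6). The differences from 24 to 48 h (1.52, adjusted p = 0.000829) and from 108 to 120 h (1.31, adjusted p = 0.00466) missed the threshold, and both passed in the fit without the 96 h libraries, with adjusted p of 1.31e-07 and 3.54e-06.

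Both cadherins thus rose between the ends of the course. Levels of different genes are compared as log2 CPM per kb of exon. Cdh2 minus Cdh1 within a library was -11.06 in replicate A and -11.23 in replicate B at 0 h, and -7.98 and -7.99 at 6 h. It was -6.54 and -6.70 at 60 h, -8.68 and -8.70 at 108 h, and -6.73 and -6.65 at 120 h. Cdh1 stayed above Cdh2 in all 42 libraries, and the smallest gap, -5.71, was in replicate B at 96 h, where A was at -8.02.

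**Figure D3:**
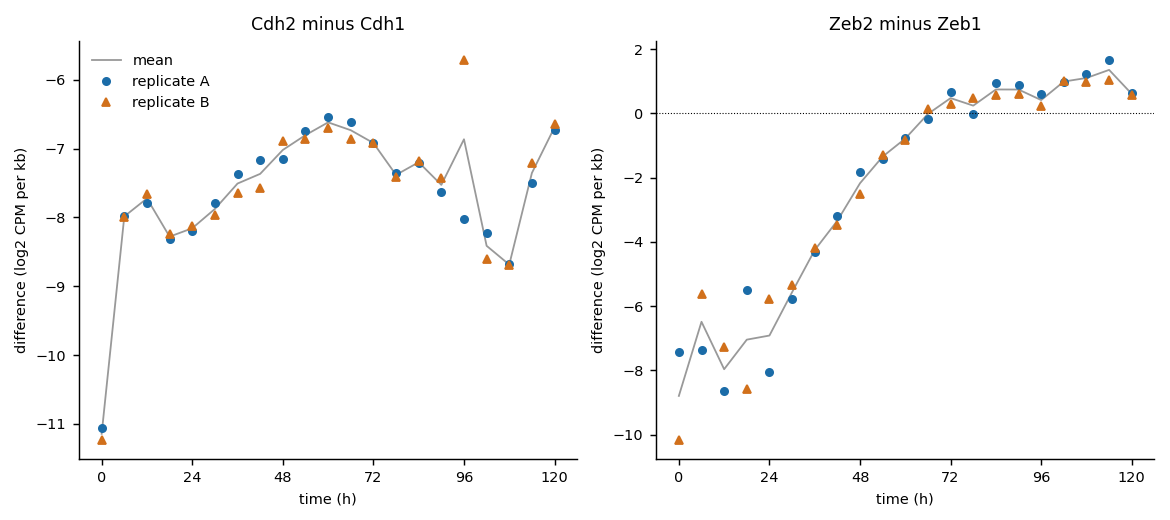
Difference between 2 genes within the same library, in log2 CPM per kb of exon (vertical axes), by time in hours, with replicate A as circles, replicate B as triangles and their mean as a line. Cdh2 minus Cdh1 (left) runs from about -11 at 0 h to about -6.7 at 60 and 120 h, with lower values near 108 h, and Zeb2 minus Zeb1 (right) passes the dotted line at 0 between 60 and 72 h.

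Epcam encodes an adhesion protein of epithelial and pluripotent cells, and its mean level stayed within 1.09 on the log2 scale. It was 7.91 and 7.99 at 0 h, 8.22 and 8.37 at 6 h and lowest at 12 h, with 7.59 and 7.72. The highest levels were 8.69 and 8.81 at 60 h, and at 120 h it was 8.06 and 8.19. The 12 h libraries lay below those of all other time points, as the 12 h level of Cdh1 lay below its neighbours at 6 and 24 h. None of the 7 differences passed for Epcam, and that of 120 h against 0 h was 0.18 ± 0.14 (adjusted p = 0.303). The nearest to the threshold was 24 to 48 h, at 0.45 (adjusted p = 0.0141). At least 3223 reads lay behind each of its values.

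Vim, the intermediate filament of mesenchymal cells, was high at 6 h and again at the end. It stood at 6.30 and 6.43 at 0 h, 6.98 and 7.07 at 6 h, and 5.91 and 6.02 at 12 h. The level was 5.84 and 6.03 at 30 h, 6.64 and 6.83 at 108 h, and 7.76 and 8.02 at 114 h. Both 114 h libraries lay above both 108 h libraries, and the 120 h ones were at 7.76 and 7.65. None of the 7 differences of Vim passed in the fit of all libraries. At 120 h against 0 h the difference was 1.34 ± 0.27, with adjusted p = 0.000151, and it passed with the replicate block (2.13e-05) and without the 96 h libraries (1.07e-09). Without the 96 h libraries 3 shorter steps passed as well, from 0 to 6 h (0.66, adjusted p = 6.72e-05), from 6 to 24 h (-1.09, 1.11e-07) and from 108 to 120 h (0.97, 1.97e-06), against adjusted p of 0.039, 0.00223 and 0.00866 with them.

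Fn1, the fibronectin gene, had its highest levels at both ends of the course. It was 10.55 and 10.23 at 0 h, 9.99 and 9.82 at 6 h and 9.01 and 9.08 at 12 h. Its lowest mean was at 66 h (8.85 and 8.47), it was 9.74 and 9.77 at 108 h, and it reached 10.45 and 10.39 at 120 h. Every library from 6 to 114 h lay below all 4 libraries of 0 and 120 h. The difference between the ends was 0.03 ± 0.19 (adjusted p = 0.905), and none of the 6 others passed, the nearest being 72 to 108 h at 0.72 (adjusted p = 0.00338). Thus Fn1 changed over the course by the F test (adjusted p = 3.11e-08), with none of the tested pairs of time points past the threshold. Those pairs included neither 12 h nor 66 h. The fall from 0 h (10.55 and 10.23) to 12 h (9.01 and 9.08) was therefore not tested, nor was the difference to the lowest mean.

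Snai1 and Snai2 encode the zinc finger repressors Snail and Slug, and they were high at different times. Snai1 stood at 1.58 and 1.83 at 0 h, 2.65 and 2.42 at 6 h, and 0.34 and 0.19 at 24 h. It was lowest at 42 h (-0.69 and -0.53, from 20 and 19 reads) and was at 1.38 and 0.64 at 72 h, 3.03 and 3.24 at 108 h and 2.55 and 2.88 at 120 h. The 6 h and the 108 h libraries thus lay far above those of 24 to 48 h. None of its 7 differences passed, with -2.26 ± 0.46 from 6 to 24 h (adjusted p = 0.00031) and 2.12 ± 0.46 from 72 to 108 h (adjusted p = 0.000488). Without the 96 h libraries both passed, at 1.04e-05 and 1.99e-05.

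Snai2 was the weakest expressed of the group at the end per kb of exon, and had few reads throughout, at most 62 in a library. It was counted in 3 and 6 reads at 0 h, 23 and 19 at 6 h, 62 and 62 at 36 h, and 33 and 33 at 120 h. The levels were -2.75 and -1.89 at 0 h, -0.23 and 0.19 at 6 h, 0.98 and 1.06 at 36 h, -1.09 and -1.22 at 78 h, and 0.28 and 0.47 at 120 h. Both replicates were highest at 36 h, when Snai1 was close to its lowest, and the 0 h libraries lay below all others. Snai2 rose by 2.30 ± 0.34 from 0 to 6 h (adjusted p = 2.43e-06), a ratio of reads of 4.98 (2.39 to 11.6), and was 2.70 higher at 120 h than at 0 h (adjusted p = 1.97e-07), a ratio of 6.75 (3.35 to 15.4). The first call was lost without 0 h replicate A (1.87, adjusted p = 0.000383) or 6 h replicate B (2.09, 0.000203) and with voom weights (0.000114), and a fit of only the time points compared ended both, at 0.00165 and 0.00133.

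Per kb of exon, Snai1 exceeded Snai2 by 4.65 in replicate A and 4.04 in replicate B at 0 h. At 36 h the order was turned, with -0.98 and -1.44, and at 108 h Snai1 was again higher, by 4.15 and 4.61. Both replicates showed the turn at 30, 36 and 42 h. Over the 42 libraries, the Pearson correlation of their levels was -0.45.

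Zeb1 and Zeb2 encode zinc finger and homeodomain repressors of Cdh1, and the first was high early and the second late. Zeb1 was at 3.72 and 3.60 at 0 h and highest at 12 h, with 4.09 and 4.04. It was 3.73 and 3.86 at 24 h, 2.32 and 2.48 at 48 h, 1.72 and 0.95 at 66 h and 3.48 and 3.35 at 120 h. Both 48 h libraries were below both 24 h libraries by more than 1 on the log2 scale, and those of 120 h were near those of 0 h. The fall from 24 to 48 h was the one that passed, at -1.39 ± 0.22 (adjusted p = 1.74e-05). It did not pass without any 1 of its 4 libraries, with differences from -1.47 to -1.31 and adjusted p from 0.000258 to 0.000874. The differences from 72 to 108 h (0.97, adjusted p = 0.000776) and from 108 to 120 h (0.95, 0.00221) missed the threshold, and the ends differed by -0.25 ± 0.22 (adjusted p = 0.363).

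Zeb2 was close to undetected at the start, with 3 reads in replicate A and 0 in replicate B at 0 h. It was counted in 4 and 7 reads at 6 h, 3 and 14 at 24 h, 78 and 53 at 48 h, 331 and 166 at 72 h, 856 and 594 at 108 h and 922 and 720 at 120 h. The levels were 1.45 and 0.92 at 48 h, 3.18 and 2.68 at 72 h, 5.19 and 4.91 at 114 h, and 5.06 and 4.90 at 120 h. From 30 h on, the mean of each time point up to 114 h lay above the one before. At 120 h it was higher than at 0 h (adjusted p = 5.55e-11), and the ratio of the summed reads was 504, with an interval of 172 to 2446 for counting error. At 48 h that ratio to 0 h was 36.6 (12.3 to 180). None of the 6 shorter steps passed, with 3.35 ± 0.75 from 24 to 48 h (adjusted p = 0.000945). The duplicates at 0, 18 and 24 h, where 1 to 21 reads or none were counted, were up to 3.07 apart, and this widens the SE of Zeb2.

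Per kb of exon, Zeb2 minus Zeb1 was -8.04 and -5.78 at 24 h, -1.83 and -2.52 at 48 h and -0.75 and -0.81 at 60 h. The replicates fell on either side of 0 at 66 h, with -0.18 and 0.15, and at 72 h both were above it, with 0.65 and 0.30. From 84 h on, Zeb2 was the higher of the 2 in every library, by 0.63 and 0.59 at 120 h. At 78 h replicate A was at -0.002 and replicate B at 0.49. The time of the crossing depends on the scaling by exon length. In log2 CPM without it, Zeb2 (2.11 and 1.90) was already above Zeb1 (1.90 and 1.76) at 60 h.

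Twist1 encodes a helix-loop-helix factor of mesoderm and neural crest. It was at 0.32 and -0.16 at 0 h (29 and 21 reads), 1.47 and 0.92 at 6 h, and 1.52 and 1.51 at 36 h. It stood at 1.80 and 2.18 at 48 h, 3.06 and 3.26 at 72 h, 3.43 and 3.73 at 90 h and 3.01 and 2.88 at 120 h. Both 0 h libraries lay below those of all other time points, and every library from 66 h on lay above every library up to 60 h. Twist1 was 2.87 ± 0.24 higher at 120 h than at 0 h (adjusted p = 9.63e-11), a 7.30-fold change, and this call held without each of the 4 libraries in turn. The steps from 0 to 6 h (1.12, adjusted p = 0.000271) and from 48 to 72 h (1.17, 0.00036) missed the threshold, and both passed without the 96 h libraries, at 2.15e-05 and 2.81e-05.

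The order of the 10 genes by level per kb of exon shifted mainly in its lower part. At 0 h Fn1 (6.84 log2 CPM per kb), Epcam (6.82) and Cdh1 (6.80) led with overlapping libraries, then came Vim (4.12), Snai1 (1.01), Zeb1 (0.30), Twist1 (-0.62), Snai2 (-3.34), Cdh2 (-4.35) and Zeb2 (-8.49), each apart from its neighbour. At 120 h Cdh1 led (7.88), ahead of Epcam (6.99), Fn1 (6.87) and Vim (5.46). Below them Twist1 (2.24) and Snai1 (2.02) overlapped, followed by Cdh2 (1.19), Zeb2 (0.66), Zeb1 (0.05) and Snai2 (-0.64). The 4 genes of adhesion, filament and matrix that were abundant at 0 h were thus also the top 4 at 120 h, and Cdh2 and Zeb2 moved up from the 2 lowest places.

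Over the 42 libraries, which share the course of time and are not independent, the closest pair among the 10 genes was Zeb2 with Twist1 (Pearson r = 0.89). Cdh1 ran with Zeb2 (0.84) and Vim with Snai1 (0.76). The most opposite pairs were Zeb1 with Twist1 (-0.79), Zeb1 with Epcam (-0.72) and Zeb1 with Zeb2 (-0.68). Zeb1 was negative with 7 of the other 9 genes, Fn1 (0.39) and Snai2 (0.25) being the exceptions. These values describe how alike the courses were and carry no p.

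**Figure D4:**
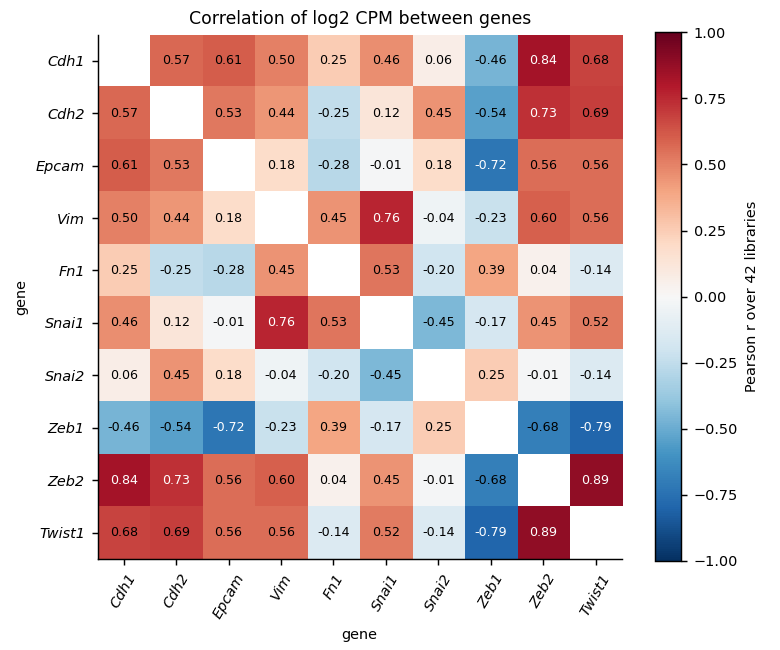
Pearson correlation of log2 CPM over the 42 libraries for each pair of the 10 genes, written in each cell and coloured from -1 to 1. Zeb2 with Twist1 (0.89) and Cdh1 with Zeb2 (0.84) are the highest, and the Zeb1 row is mostly negative.

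Among 12911 genes whose mean level was 0 log2 CPM or more, the 3 whose levels correlated most with each gene over the 42 libraries were named. For Cdh1 they were Map4k5, Epb41l5 and Itgb1 (r from 0.93 to 0.94), and for Cdh2 they were Rbm46, Shisa6 and Zfhx3 (0.87 to 0.90). For Epcam they were Spon1, Abracl and Tcfl5 (0.82 to 0.84), for Vim Ctsd, Emp3 and Btg2 (0.86 to 0.89), and for Fn1 Sipa1l2, Flii and Fbrsl1 (0.85 to 0.87). Snai1 was closest to Rin3, Tgfb1i1 and Card10 (all 0.91), and Snai2 to Rngtt, Gm16136 and Ap3m1 (0.78 to 0.80). Zeb1 was closest to AU018091, Myof and Atp11a (0.95), Zeb2 to Adamts1, Rtn4rl1 and Maml2 (0.95 to 0.96), and Twist1 to Dgkk, Tmem200a and Plcl2 (0.95 to 0.96). The r of Zeb1, Zeb2 and Twist1 with their nearest genes was thus above that of Snai2 and Epcam. Snai2 had at most 62 reads in a library. The distance between highest and lowest mean was smallest for Epcam (1.09) and largest for Zeb2 (9.22). The part of few reads and of this distance in r was not tested.

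Lists of related genes give the setting of the 10 genes between 0 and 120 h, where 12.9% of all genes rose and 10.1% fell. Of 9 measured other cadherins 4 rose and 0 fell, with a median difference of 0.88 on the log2 scale. Cdh6 was counted in 1 read over both libraries at 0 h and 288 at 120 h, a ratio of 265 (47.2 to 10510), and Cdh11, the cadherin of mesenchyme and bone, in 2 and 313 reads, a ratio of 144 (39.6 to 1195). Of 11 catenins and cadherin partners 5 rose and 1 fell (median 0.64). Ctnnd2, a delta catenin, went from 0.05 and -0.04 to 3.75 and 3.70 (difference 3.71 ± 0.21), and the actin linker Vcl from 7.41 and 7.27 to 8.97 and 8.90 (1.59 ± 0.14). The one that fell was Nectin1, a nectin of adherens junctions, by 1.12 ± 0.14.

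Tight junction and polarity genes rose most often, with 12 of 14 higher and 0 lower (median 1.02). Marveld2, which encodes tricellulin, went from 1.68 and 2.02 to 4.19 and 4.17 (2.33 ± 0.14), and the claudin gene Cldn3 from 2.51 and 2.46 to 4.52 and 4.56 (2.05 ± 0.20). Among 13 epithelial regulators 3 rose and 1 fell, with a median of -0.06, against -0.02 over all genes. Esrp1, an epithelial splicing regulator, rose by 2.31 ± 0.09, and the epithelial factor gene Elf3 fell by 1.24 ± 0.19. Without the 96 h libraries the counts of this list were 5 and 2.

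Of 9 other transcription factors listed with the transition, 5 rose and 0 fell (median 1.36). The list was not split by whether a factor drives or opposes the transition. Twist2, a close relative of Twist1, was counted in 3 reads at 0 h and 170 at 120 h, a ratio of 52.2 (17.6 to 256), and Sox9 rose by 2.84 ± 0.48. Of 13 mesenchymal products 8 rose and 1 fell (median 1.66, also with Col3a1, at 0 reads in both 0 h libraries, set at its bound). The smooth muscle actin gene Acta2 had 2 reads at 0 h and 3829 at 120 h, a ratio of 1763 (488 to 14561), and the actin-binding Tagln rose by 8.66 ± 0.22, from 0.11 and 0.29 to 8.85 and 8.87. Pdgfrb, a receptor of platelet-derived growth factor, fell by 1.93 ± 0.22.

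Of 10 genes of TGF-beta signalling, which induces the transition in many epithelia, 3 rose and 0 fell (median 0.65). The ligand gene Tgfb2 went from 8 reads to 1352 (7.11 ± 0.27) and Tgfb3 from 15 to 129 (3.02 ± 0.56). Without the 96 h libraries the counts of this list were 3 and 2, and those of the mesenchymal products 9 and 1. The genes that fell in these lists, Nectin1, Elf3 and Pdgfrb, were named after their values were seen.

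Markers of cell types the cultures could hold also differed between the time points. The summed level of 6 pluripotency genes was 3404 and 3669 CPM at 0 h and 1582 and 1532 CPM at 120 h, with Pou5f1 at 9.88 and 10.08 log2 CPM at 0 h. For 4 neuroectoderm genes the sum was 17.8 and 14.4 CPM at 0 h, 355 and 328 CPM at 108 h and 202 and 187 CPM at 120 h. For 4 of 6 endoderm genes measured it was 90.2 and 82.6 CPM at 0 h, 262 and 262 CPM at 108 h and 210 and 210 CPM at 120 h. Sox17 and Afp were not among the genes of the files. Most of the endoderm sum was Lamb1, at 6.45 and 6.31 log2 CPM at 0 h and 7.64 and 7.64 at 120 h. Most of the neuroectoderm sum at 108 h was Nes, at 8.29 and 8.14, against 7.26 and 7.08 at 120 h. Sox1, Pax6 and Zic1 were lower at 108 h than at 120 h in both replicates, with Sox1 at 5.38 and 5.45, then 5.51 and 5.62. For 5 of 6 genes of the primitive streak and early mesoderm the sum was 17.3 and 15.7 CPM at 0 h and 75.5 and 64.2 CPM at 120 h. Mesp1 was not among the genes of the files. The part of these shifts in the levels of the 10 genes was not tested.

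Fibroblast feeder cells, on which ES cells are often grown, make much Vim and Fn1. For 6 of 7 fibroblast genes measured, Lum not being among them, the sum was 24.4 and 28.1 CPM at 0 h and 102 and 91.7 CPM at 120 h. At 0 h Col3a1 and Dcn had 0 reads in both libraries, Postn had 1 and 0, and Col1a2 had 2 and 2. Col1a1 had 113 and 139 reads and Thy1 456 and 533. At 0 h, 4 of the 6 measured genes were thus at or near 0 and the other two were not, and the part of feeder cells in the levels of Vim and Fn1 was not tested. At 120 h the sum was largely Col1a1, with 1697 and 1407 reads, which is also counted among the mesenchymal products, as are Col1a2 and Col3a1. Col1a2, Col3a1 and Postn were also higher at 120 h than at 0 h. Thy1 went the other way, from 4.27 and 4.47 log2 CPM at 0 h to 1.79 and 1.85 at 120 h. Dcn had 11 and 6 reads at 120 h.

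At 96 h replicate B differed from replicate A more than at any other time point for 4 of the 10 genes, Cdh2, Vim, Snai1 and Twist1, where 33.9% of all genes had their largest duplicate difference at 96 h. Cdh2 was at 2.63 in A and 4.71 in B, Vim at 6.58 and 8.34, Snai1 at 1.90 and 4.11, and Twist1 at 3.42 and 4.44. In B each of these was above both libraries of the time points before and after. Cdh1, at 9.83 and 9.60, differed in the other direction, by -0.23, and Epcam, Fn1, Snai2, Zeb1 and Zeb2 had larger differences at other times. The summed level of the primitive streak and early mesoderm genes was 101.6 CPM in A and 474 CPM in B, with the streak factor T at 5.70 and 7.83 and Eomes at 5.24 and 7.47 log2 CPM. The fibroblast sum was 24.2 CPM in A and 9.27 CPM in B, and the pluripotency sum 1140 and 1824 CPM. For the endoderm genes the sum was 211.6 and 241 CPM, and for the neuroectoderm genes 117.4 and 126.7 CPM. The first sum was mostly Lamb1 and the second mostly Nes, so neither shows the weaker genes of its list. Among the endoderm genes, Foxa2 (32 reads in A and 140 in B), Gata6 (36 and 160) and Gata4 (256 and 414) were higher in B. Among the neuroectoderm genes, Sox1 (426 and 102 reads) and Pax6 (20 and 9) were lower in B, and Zic1 (45 and 74) was higher. With a single library on each side, no test of the differences between the 96 h replicates was possible.

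**Figure D5:**
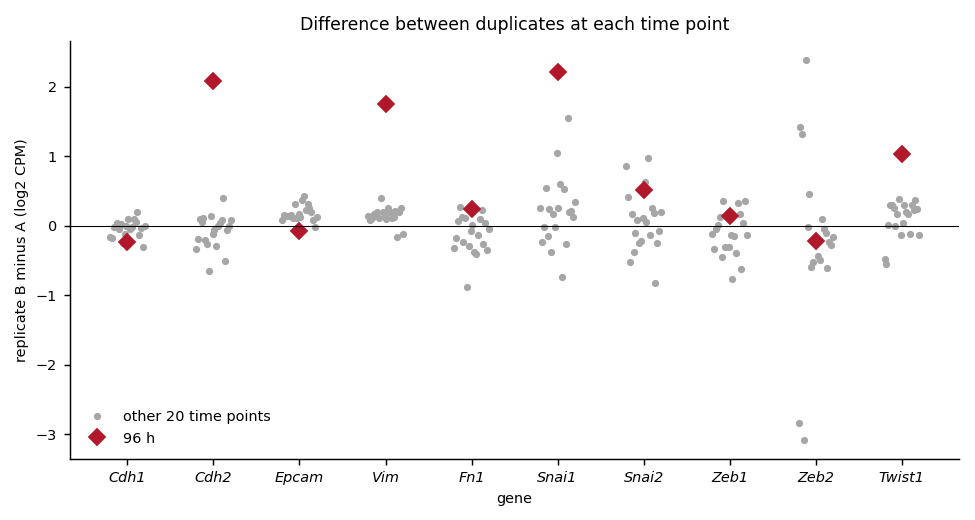
Replicate B minus replicate A in log2 CPM (vertical axis) for each of the 10 genes, with 96 h as a red diamond and the other 20 time points as grey dots. The diamonds of Cdh2, Vim, Snai1 and Twist1 lie above all grey dots of those genes, that of Epcam (-0.08) lies just below its dots, and those of the other genes lie among theirs.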

How the data were processed

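Per the labels and the study's methods, reads were trimmed (Trim Galore), aligned to mm10 (TopHat2) and counted per GENCODE vM2 gene (HTSeq). The authors kept genes above 1 CPM in 2 or more samples, scaled the libraries with edgeR factors and transformed them with voom, in versions not given in the sources used here. The values the authors deposited, 1 file per library, are log2 CPM with an offset of 0.5 read. Every value mapped to a whole read (within 0.001) and no 2 libraries were identical.

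Identifiers were matched to GENCODE vM21 (14177 of 14296), which gave symbols and exon lengths. A factor of 21 time points was fitted to all 42 libraries with limma 3.58.1 in R 4.3.3 (eBayes with a trend, 21 residual degrees of freedom), with two-sided p-values adjusted by Benjamini-Hochberg over all genes of a contrast. The threshold, adjusted p below 0.0001, is that of the study. The fit was tested on simulated data. Ratios of reads carry exact Clopper-Pearson 95% intervals.

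The letters A and B name 2 time courses. The A minus B differences of 2 time points correlated with a mean r of 0.0795 over 210 pairs of time points, from -0.474 to 0.598. Of these, 68.6% were positive and 47.1% were above 0.1. The replicate block was fitted as an alternative only. With it, the SE of Epcam from 0 to 6 h was 0.091, against 0.140 in the main fit. The labels call the duplicates biological.

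All 10 genes are named. The lists name the 2 genes with the largest difference of 120 h against 0 h among those that passed, except 1 that is not reported here. The 10 genes, lists and alternatives were chosen with earlier results of these data known. Alternatives comprised the replicate block, voom weights, trend, adjustment, threshold, a filter at a mean of 0 log2 CPM, 2 scalings, an offset of 2 reads, and the libraries fitted.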

Additional observations from a re-analysis of the deposited data

How the results depend on the processing

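The count of genes called at 120 h versus 0 h was 5, with 6 under the replicate block, which added Vim and changed no other count, so the paired fit moved no other call. In the F test Cdh2 missed the threshold with voom weights, which left 9 genes, and the filter on low values left 9 since it removes Snai2. Under the other alternatives all 10 passed, also without 96 h replicate B, which was added after seeing the data. At adjusted p below 0.05 the counts of the 6 steps, in order of time, were 8, 3, 6, 3, 4 and 7. Of all 14296 genes, 3854, 2734, 2452, 3077, 3314 and 2015 rose in these steps at that threshold. Those that fell numbered 4439, 2760, 1823, 2774, 3175 and 1827. Without the 96 h libraries, at adjusted p below 0.0001, the counts of the 10 genes were 5, 2, 2, 1, 2 and 3. Fits of only the time points compared gave 2 at 24 h versus 6 h, 2 at 48 h versus 24 h, 0 at 108 h versus 72 h and 4 at 120 h versus 108 h. Over all genes, those that rose and fell in these fits were 547 and 754, 553 and 501, 59 and 4, and 394 and 589. Voom weights gave 1 at 6 h versus 0 h and 2 at 108 h versus 72 h, where 1584 and 1418 of all genes rose and 1829 and 1017 fell. An offset of 2 reads gave 2 at 48 h versus 24 h, where 804 of all genes rose and 551 fell. Unscaled library totals gave 1 at 72 h versus 48 h and 0 at 120 h versus 108 h, where 1137 and 543 of all genes rose and 287 and 120 fell. Leaving out 1 library gave 1 to 2 calls at 6 h versus 0 h, 0 at 48 h versus 24 h and 0 at 120 h versus 108 h. Unscaled totals shift all genes by -0.22 at 6 h versus 0 h, 0.15 at 72 h versus 48 h, -0.10 at 108 h versus 72 h and 0.13 at 120 h versus 108 h, and centring on the median gene shifts them by 0.12 at 6 h versus 0 h. Of 611 alternative values of the differences named, 1 turned its sign, that of Fn1 at 120 h versus 0 h without 0 h replicate B (-0.13 against 0.03, and 0.19 without 0 h replicate A, none past the threshold). Another 541 kept their direction and their side of the threshold, 21 lost the call and 48 gained it. The values cover 41 differences, those with adjusted p below 0.05 in the main fit and all of 120 h versus 0 h. At the alternative threshold of 0.05, uncalled differences chosen in this way gained the call by construction, and such gains are among the 48. The 541 include differences called neither in the main fit nor in the alternative. Where a cause is not given here, it was not tested. With 2 libraries per time point the spread is shared over the course, and levels under 3 reads depend on the offset.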
